A study of Mus musculus with 6 samples.

Results

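The genes described here are 10 genes of brown-type heat production, Ucp1, Ppargc1a, Ppargc1b, Cox8b, Cox7a1, Elovl3, Cidea, Dio2, Prdm16 and Kcnk3, out of 18193 genes that the arrays name by at least 1 probe set of their own. Every probe set annotated to exactly 1 of them was taken, which gave 21 probe sets. The 10 genes were chosen from a wider analysis of the same arrays in which the resveratrol-control differences of Cox8b, Cox7a1 and Ppargc1a were already known. Their differences are therefore a description, and the adjusted p-values given beside them are the output of 1 fit across all probe sets and support nothing about the set. The study measured total RNA of 3T3-L1 cells, a mouse embryonic fibroblast line that can turn into fat cells in culture, on 6 one-colour oligonucleotide arrays. The groups were 3 untreated control samples and 3 samples treated with resveratrol, a plant polyphenol. The labels name no other agent and give neither dose, duration nor differentiation protocol, and 3T3-L1 is 1 clonal line. No label says whether the 3 samples of a group came from cultures grown apart, so the spread behind each p-value may be technical only.

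Brown and beige fat cells burn fuel to make heat. Cold releases noradrenaline, which raises cyclic AMP, and this induces the coactivator Ppargc1a and the deiodinase Dio2. Mitochondria then multiply, and the inner-membrane carrier Ucp1 lets protons return without making ATP. Prdm16 sets brown fat fate, Cidea coats lipid droplets, Elovl3 lengthens fatty acids, and Kcnk3 is a potassium channel of the cell surface. Cox8b and Cox7a1 are subunit isoforms of cytochrome c oxidase, the last complex of the respiratory chain, found mainly in muscle, heart and brown fat. Other tissues use Cox8a and Cox7a2.

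In short, Cox8b and Cox7a1 fell with resveratrol to levels near background, and Kcnk3 and Ppargc1a fell to 55.9% and 64.6% of control. Elovl3, dim in control cells, also fell to a level near background, a call that was lost in 8 of 18 other settings. Ppargc1b and Dio2 did not pass the test. Ucp1, Cidea and Prdm16 were near background in both groups, as were 7582 of all 18193 genes. Near background means here that the group mean intensity lay below 42.4, the 95th percentile of the signals of 81 probe sets for smell, pheromone and trace amine receptors, which this line is not thought to express. On single arrays that percentile ran from 34.9 to 47.1, and the median receptor probe set had 8.45. As a second yardstick, 27 probe sets for bacterial control genes reached at most 19.0. These genes were taken as not added to the samples.

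The sequences before the start sites of 4 of the genes are given because Cox8b, Cox7a1 and Ppargc1a were called lower, while Dio2, a textbook cyclic AMP target, was not. Of the 10 genes, 6 matched by symbol in the RefSeq promoter table of build GRCm38.p6. Each run is the 250 bases before the annotated start, read in the direction of the gene. They lie at chr7:140900447-140900696 on the minus strand for Cox8b, chr7:30183921-30184170 on the plus strand for Cox7a1, chr5:51567726-51567975 on the minus strand for Ppargc1a and chr12:90739039-90739288 on the minus strand for Dio2. Capitals mark the motif matches found.
Cox8b: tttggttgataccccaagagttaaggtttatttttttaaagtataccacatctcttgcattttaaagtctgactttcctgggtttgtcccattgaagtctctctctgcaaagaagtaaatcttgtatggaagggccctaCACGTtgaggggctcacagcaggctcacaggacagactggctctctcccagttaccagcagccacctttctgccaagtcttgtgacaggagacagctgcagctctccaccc
Cox7a1: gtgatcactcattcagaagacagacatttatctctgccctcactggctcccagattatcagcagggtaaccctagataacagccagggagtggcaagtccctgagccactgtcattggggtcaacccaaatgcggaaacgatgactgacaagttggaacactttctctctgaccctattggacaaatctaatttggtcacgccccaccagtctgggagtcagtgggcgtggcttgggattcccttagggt
Ppargc1a: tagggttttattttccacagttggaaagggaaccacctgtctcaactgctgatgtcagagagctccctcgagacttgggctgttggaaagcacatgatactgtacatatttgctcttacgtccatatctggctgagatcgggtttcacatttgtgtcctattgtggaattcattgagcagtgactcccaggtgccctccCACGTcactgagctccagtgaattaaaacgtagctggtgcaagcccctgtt
Dio2: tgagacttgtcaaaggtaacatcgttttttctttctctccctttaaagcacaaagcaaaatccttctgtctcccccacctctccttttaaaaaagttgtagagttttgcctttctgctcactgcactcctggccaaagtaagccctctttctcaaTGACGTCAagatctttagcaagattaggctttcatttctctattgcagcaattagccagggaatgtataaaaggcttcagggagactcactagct
On both strands a script searched for AAGGTCA, the core bound by estrogen-related receptors, TGACGTCA and TGACGCAA, forms of the cyclic AMP response element, ACGTG, the core of the hypoxia response element, and 2 copies of AGGTCA with 1 base between, the element of PPAR and RXR. Cox8b holds ACGTG on the opposite strand, 111 to 107 bases before the start, and Ppargc1a holds it on the opposite strand 51 to 47 bases before the start. Of all 32851 promoters of this length, 16.6% hold it. Dio2 holds TGACGTCA 95 to 88 bases before the start, as do 1.55% of all promoters somewhere in the window. None of the searched letters are in the Cox7a1 window. The shares of all promoters were 4.08% for AAGGTCA, 0.438% for TGACGCAA and 0.0335% for the repeat. A match is a description of letters only. Bases outside these windows, any other start sites of the genes and shorter forms of the motifs were not searched. A missing match therefore says nothing of them.

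Intensities are the authors' values on a linear scale. For testing, they were turned into log2(intensity + 16), on which a change of a dim probe set is understated. The brightest 60% of probe sets by their mean were tested by limma, a linear model fitted across all probe sets, and a gene is called at an adjusted p below 0.05. The cut lay at an intensity of 20.3. Of the 21 probe sets 13 were tested, and of the 10 genes 7, each represented by its brightest probe set. Cox8b passed the cut through its control arrays alone, so a count over tested genes has the fall of Cox8b built in.

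**Figure D1:**
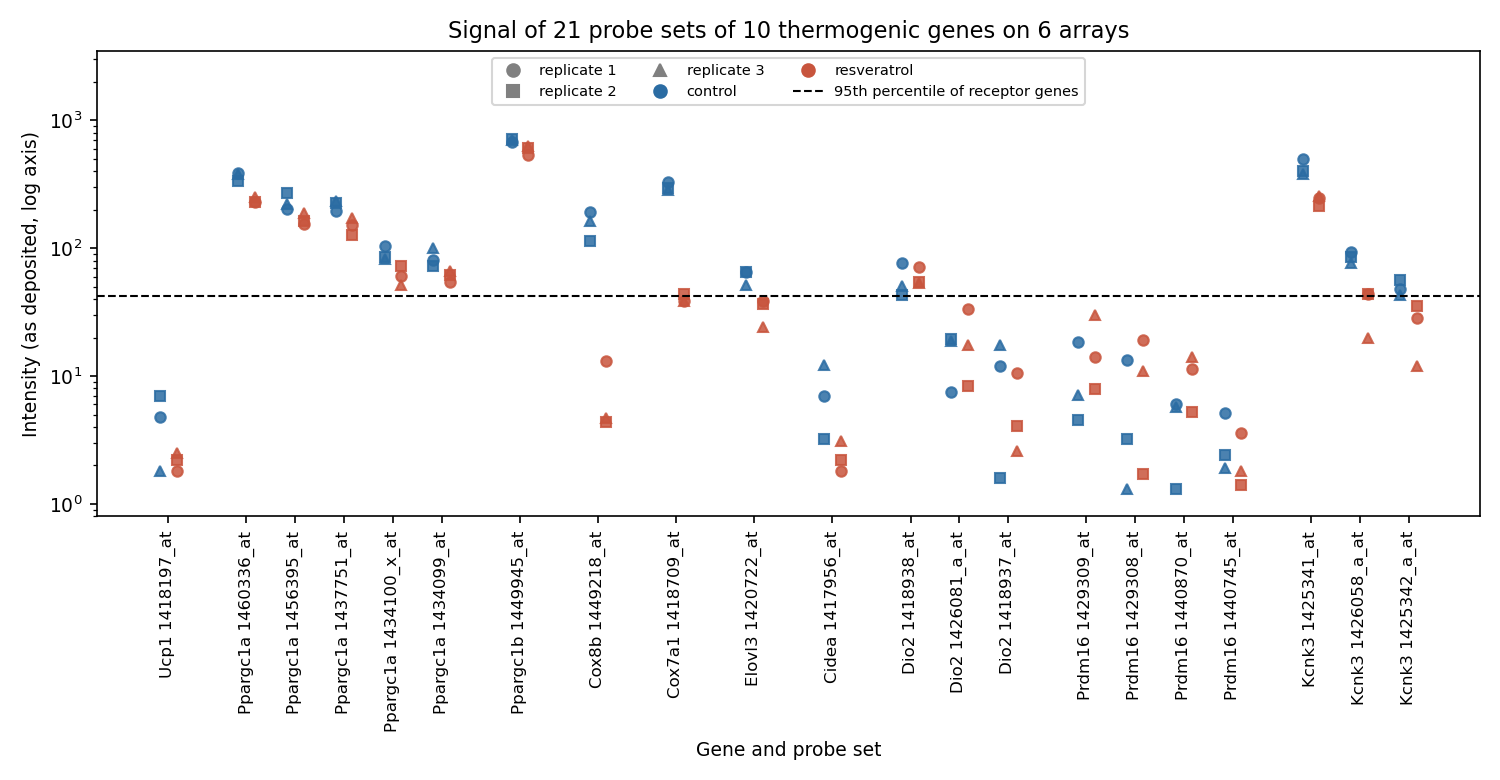
Intensity as deposited (log axis) of the 21 probe sets on each of the 6 arrays, blue for control and red for resveratrol, with the replicate number as the marker shape. The dashed line is the background level of 42.4. Cox8b and Cox7a1 drop to or below the line with resveratrol, and all probe sets of Ucp1, Cidea and Prdm16 stay below it.

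Of the 7 genes tested, 5 were called lower and 0 higher, where over all 12630 genes tested 5.21% were called lower and 5.32% higher. In 6 of the 7 all resveratrol arrays lay below all control arrays, as they did for 13.7% of all genes tested. The median log2 difference of the 7 was -0.65, against 0.02 over all genes tested. Nothing is read from these counts, since the set was put together with this contrast in view. Array results can rest on the hybridisation itself: bacterial spikes added to the samples were brighter on control replicates 1 and 2 and resveratrol replicate 1 (mean log2 signal from 10.72 to 11.01) than on the other 3 arrays (9.97 to 10.3). Within-class differences are given below for the genes called.

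Cox8b and Cox7a1 encode the small oxidase subunits VIIIb and VIIa1. The single Cox8b probe set had intensities of 192, 114 and 162 on the control arrays and of 13.0, 4.40 and 4.70 on the resveratrol arrays. The groups did not overlap, and none of the resveratrol values exceeded the background of its array. The mean fell from 156 ± 39.6 (SD, n = 3) to 7.37 ± 4.88, which left 4.73% of the control signal. Counting each resveratrol array at its background level, which its signal did not reach, control was at least 3.72-fold higher. The log2 difference was -2.87 ± 0.21 (SE), with an adjusted p = 1.57e-05 in the limma fit. It was -2.50 within the arrays of brighter spikes and -3.12 within the others. The size of this difference depends on the offset, since the treated signal was not above background: it was -1.61 at an offset of 64 and -4.34 at an offset of 1.

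The single Cox7a1 probe set gave 330, 294 and 284 in control cells and 38.4, 44.1 and 38.6 in treated cells. The 3 treated arrays lay close together, and 1 of them exceeded its array's background. The mean went from 303 ± 24.3 (SD, n = 3) to 40.4 ± 3.23, or 13.3% of control, and the log2 difference was -2.50 ± 0.11 (SE) with adjusted p = 6.93e-07. Within the brighter and dimmer spike classes it was -2.59 and -2.39. At offsets of 64 and 1 it was -1.81 and -2.88. In RNA of whole cultures, fewer cells that carry a transcript and less transcript per cell cannot be told apart.

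The isoforms that other tissues use were bright in both groups. Cox8a, the ubiquitous counterpart of Cox8b, had 5355, 5147 and 4116 on the control arrays and 4275, 4024 and 4078 on the resveratrol arrays, and the groups overlapped. Its log2 difference was -0.23 ± 0.11 (SE), with a 95% interval from -0.46 to 0.00 and adjusted p = 0.235. Cox7a2, the counterpart of Cox7a1, had 6806, 7315 and 5741 against 5571, 5158 and 5431, a difference of -0.29 (95% interval from -0.52 to -0.06, adjusted p = 0.122). A second probe set of Cox7a2 had -0.30 and passed with adjusted p = 0.0397. The difference between isoforms was not tested, since Cox8b and Cox7a1 were chosen with their values known.

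Across the nuclear-encoded oxidase subunits other than the 2 isoforms, 13 of 15 found were tested. Of these, 1 fell and 12 did not pass, with a median log2 difference of -0.25, where 5.21% of all genes tested were called lower. The 1 that fell was Cox7a2l, the supercomplex assembly factor, at -0.47 (adjusted p = 0.00297) with its brightest probe set, which may cross-hybridise. Its other probe sets had -0.09 and -0.15 and did not pass. Cox4i1, the regulatory subunit, had -0.25 (adjusted p = 0.169). In other settings 5 fell after quantile normalization and 8 without control replicate 3, while 1 fell with the spike classes as a block, at a median of -0.17.

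**Figure D2:**
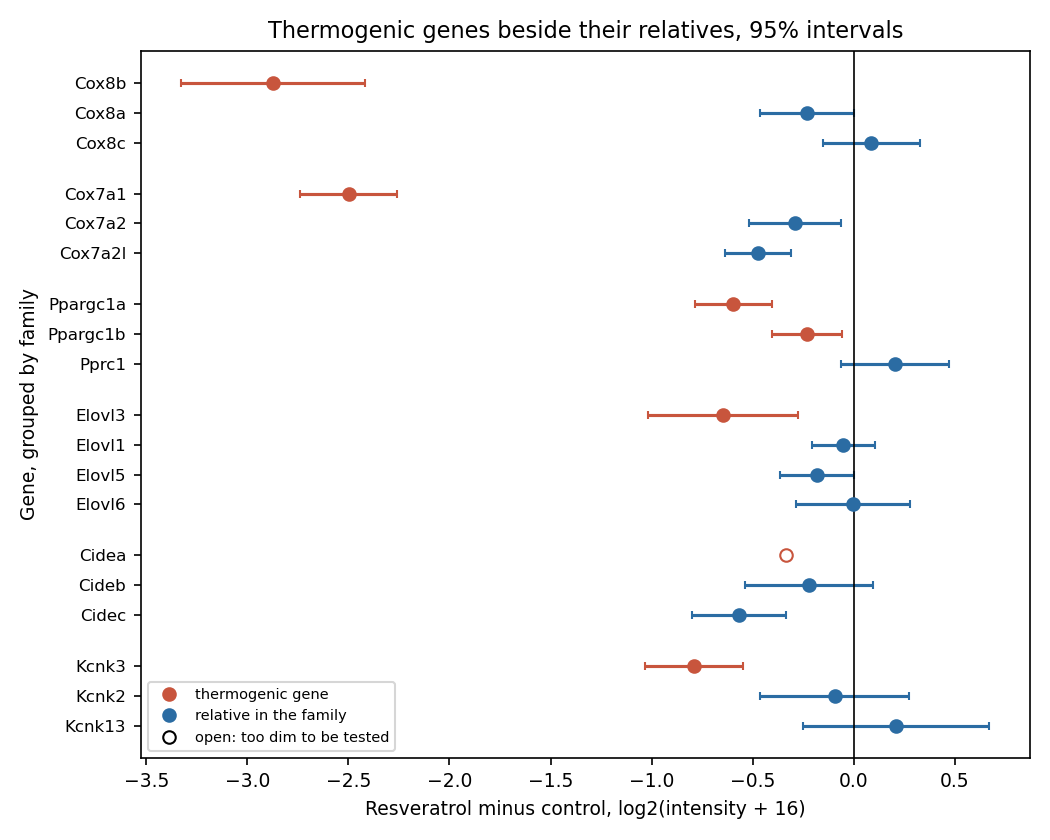
Difference between resveratrol and control on the log2(intensity + 16) scale for the brightest probe set of each gene, grouped by family, with 95% intervals from the limma fit. Red points are the thermogenic genes and blue points their relatives, and the open point was too dim to be tested. Cox8b and Cox7a1 lie at -2.87 and -2.50, and all other tested genes shown lie above -0.8.

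Ppargc1a, the coactivator that switches on mitochondrial genes, was measured by 5 probe sets, and on each of them all 3 resveratrol arrays lay below all 3 control arrays. The brightest had 388, 334 and 378 in control cells and 228, 231 and 251 in treated cells. The mean fell from 366 ± 28.6 (SD, n = 3) to 237 ± 12.6, or 64.6% of control, with a log2 difference of -0.60 ± 0.09 (SE) and adjusted p = 0.00208. It was -0.62 within the arrays of brighter spikes and -0.62 within the others. The next 2 in brightness differed by -0.42 and -0.50 and passed with adjusted p = 0.0492 and 0.0265. The 2 dimmest had -0.47 and -0.39 and did not pass (adjusted p = 0.0731 and 0.128). The 5 probe sets thus left between 64.6% and 72.5% of the control signal. They report on 1 gene in the same RNA, so they are no replicates of the treatment.

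Ppargc1b, the closest relative of Ppargc1a, was measured by 1 probe set, with 672, 713 and 699 in control and 539, 606 and 625 in treated cells. The groups did not overlap, but the log2 difference of -0.23 ± 0.08 (SE) did not pass at an adjusted p = 0.101. The 95% interval ran from -0.40 to -0.06. Pprc1, the third relative, had 149 ± 28.4 (SD, n = 3) in control and 172 ± 3.15 in treated cells, a difference of 0.20 (adjusted p = 0.381).

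Kcnk3, the acid-sensitive potassium channel TASK1, was measured by 3 probe sets. The brightest had 502, 399 and 383 on the control arrays and 249, 215 and 254 on the resveratrol arrays. Its mean fell from 428 ± 64.9 (SD, n = 3) to 239 ± 21.2, or 55.9% of control. The log2 difference was -0.79 ± 0.11 (SE) with adjusted p = 0.00148, and it was -0.81 and -0.67 within the brighter and dimmer spike classes. The second went from 92.6, 84.6 and 76.0 to 44.0, 43.8 and 19.8, a difference of -0.99 (adjusted p = 0.0123). The third went from 47.7, 56.3 and 43.4 to 28.7, 35.1 and 11.9 and did not pass (-0.70, adjusted p = 0.0821). In all 3 the groups lay apart. Of the resveratrol arrays, 1 of 3 exceeded its background on the second probe set and 0 of 3 on the third. Of its relatives in the channel family, Kcnk2 had -0.09 and Kcnk13 0.21, neither passing, at means near background.

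Elovl3, the elongase of very long-chain fatty acids that cold induces in brown fat, was dim in all samples. Its single probe set had 64.6, 65.6 and 51.2 in control and 38.5, 36.4 and 24.2 in treated cells. Every control array exceeded its background, and 1 of 3 resveratrol arrays did. The mean went from 60.5 ± 8.03 (SD, n = 3) to 33.03 ± 7.72, a log2 difference of -0.65 ± 0.17 (SE) with adjusted p = 0.0392. Within the brighter and dimmer spike classes it was -0.57 and -0.55. The call was lost in more settings than those of the other 4 genes. It was lost with the spike classes as a block (-0.56, adjusted p = 0.0775), without the filter on dim probe sets (adjusted p = 0.112), without an intensity trend (adjusted p = 0.0600), and without control replicate 1 or 2 or any one of the resveratrol replicates, where adjusted p ran from 0.0590 to 0.127. Without control replicate 3 it was kept. The other elongases tested did not pass at their brightest probe sets: Elovl1 had -0.05, Elovl5 -0.18 and Elovl6 -0.00. A second, possibly cross-hybridising probe set of Elovl5 passed at -0.26 (adjusted p = 0.043).

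Dio2, which makes active thyroid hormone inside the cell, had 1 probe set bright enough to be tested. It read 76.6, 42.7 and 50.6 in control cells and 71.4, 54.1 and 53.8 in treated cells, so the groups overlapped. The log2 difference was 0.08 ± 0.18 (SE), with a 95% interval from -0.33 to 0.49 and adjusted p = 0.86. Its 2 other probe sets stayed between 1.60 and 33.2 on all 6 arrays, below the background of every array. The deiodinase Dio1 was listed at means of 0.748 and 2.40, also near background.

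Ucp1, the uncoupling protein that defines brown fat, had no signal above background. Its single probe set read 4.81, 7 and 1.80 in control and 1.80, 2.20 and 2.50 in treated cells, below the median receptor probe set. Cidea, also with 1 probe set, read 6.92, 3.20 and 12.3 against 1.80, 2.20 and 3.10. The control values of Cidea all lay above the treated ones, but all 6 were under the background of their arrays, so no fold is given. Prdm16 was represented by 4 probe sets, of which the brightest read 18.5, 4.50 and 7.10 against 14.2, 7.90 and 29.8. The other 3 ran from 1.30 to 19.3. The groups overlapped for all 4 probe sets of Prdm16, with 3 of them higher and 1 lower on average with resveratrol. These 3 genes were below the cut for testing, and these values bear on the probe sets, not on the absence of the transcript.

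**Figure D3:**
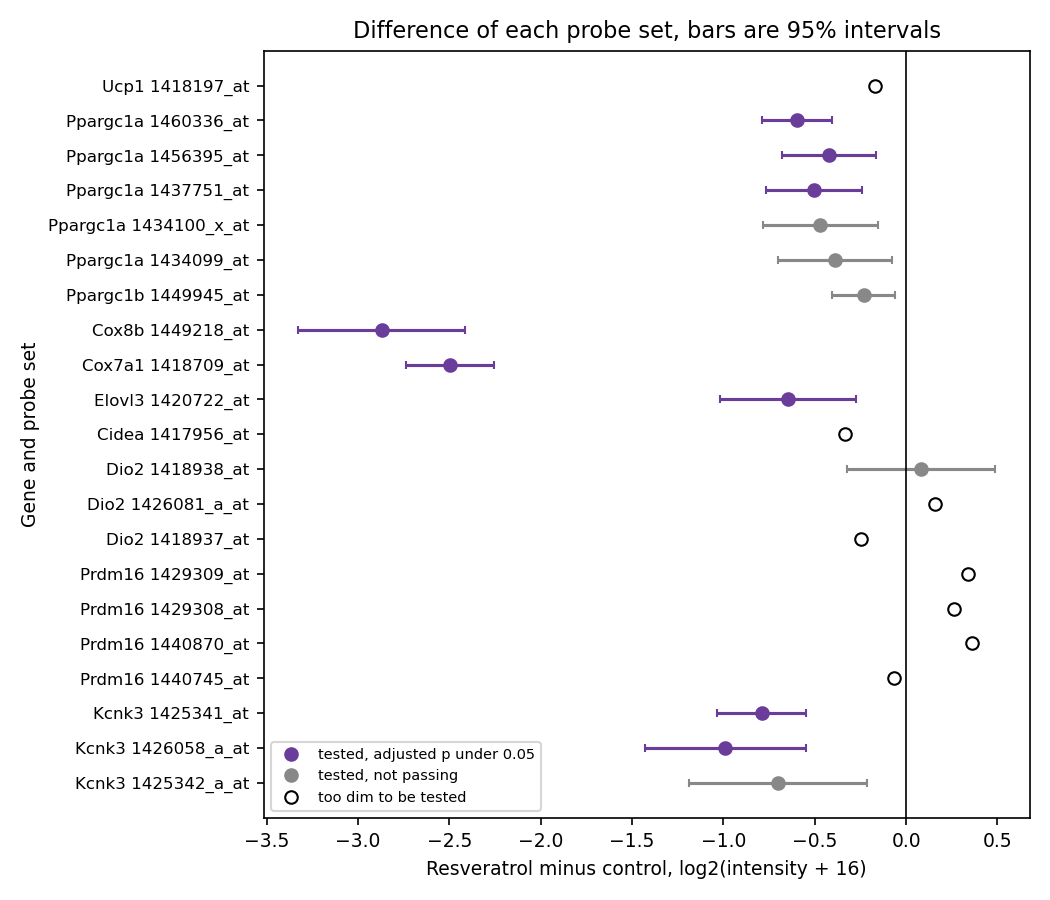
Difference between resveratrol and control on the log2(intensity + 16) scale for each of the 21 probe sets, with 95% intervals from the limma fit for the 13 tested. Purple points passed at an adjusted p below 0.05, grey points did not, and open points were too dim to be tested. The 8 purple points belong to Ppargc1a, Cox8b, Cox7a1, Elovl3 and Kcnk3 and all lie below 0.

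Other markers of brown or beige fat were in part without signal. Of 27 found on the array, 18 were near background in both groups, beside 7582 of all 18193 genes. Among the 18 were Zic1 and Lhx8, which mark classical brown fat, at means of 6.69 and 1.54 in control cells. Both are named after their values were seen. Of 12 tested, 5 fell, 1 rose and 6 did not pass, with a median log2 difference of -0.26. Over all genes tested, 5.21% were called lower and 5.32% higher. Slc36a2, a proton-coupled amino acid transporter at the surface of brown fat cells, fell from 318 ± 39.5 (SD, n = 3) to 166 ± 6.22, a log2 difference of -0.87 with adjusted p = 0.000446. Oplah, the oxoprolinase of the glutathione cycle, fell from 117 ± 7.49 to 52.6 ± 10.6, at -0.97 (adjusted p = 0.00213). Nrg4, a neuregulin that brown fat secretes, differed by -0.73 (adjusted p = 0.0064) and its second probe set by -0.73 as well. S100b, a calcium-binding protein, fell by 0.70 (adjusted p = 0.0112), from 92.2 to 50.6, while its dimmer probe set had -0.57 and did not pass. These 4 kept their calls in all 11 other settings run for gene lists. The other 2 calls are named after their values were seen. Slc29a1, a nucleoside transporter, rose from 684 ± 23.9 to 886 ± 52.5, at 0.37 (adjusted p = 0.0126), a call lost without resveratrol replicate 1 or 2. Letmd1 fell by 0.32 (adjusted p = 0.0395). It did not pass once the spike classes were a block (adjusted p = 0.0761), nor when any single array except control replicate 3 was left out. The name brown-type is that of the gene list. Ucp1, Cidea and Prdm16 do not bear it out, with no signal above background in either group. The 7 of the 10 genes that were tested had control means above background. Low values bear on the probe sets, not on the absence of a transcript.

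White fat markers went both ways. Of 8 tested, 2 fell, 1 rose and 5 did not pass, at a median of -0.08. The shares over all genes tested were 5.21% lower and 5.32% higher. Dpt, the matrix protein dermatopontin, fell from 1316 ± 45.5 (SD, n = 3) to 634 ± 32.1, at -1.04 (adjusted p = 1.5e-05), and Retn, which encodes resistin, fell by 0.54 (adjusted p = 0.0255). Agt, the angiotensinogen gene, rose by 0.96 (adjusted p = 0.000169). The call of Retn was lost without control replicate 1 or 2 or resveratrol replicate 2 or 3, while those of Dpt and Agt held in all 11 other settings.

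Of the genes known to be driven by Ppargc1a, 18 were tested, 4 fell, 0 rose and 14 did not pass, with a median of -0.23. Over all genes tested, 5.21% were called lower and 5.32% higher, at a median of 0.02. Whether these falls follow from that of Ppargc1a was not tested. Slc2a4, the insulin-responsive glucose transporter, had -1.19 (adjusted p = 0.000172). Acadm, of fatty acid oxidation, had -0.75 (adjusted p = 0.00021). Gabpa, a nuclear respiratory factor subunit, went from 316, 312 and 358 to 182, 214 and 217, at -0.65 (adjusted p = 0.00233). Idh3a, of the citric acid cycle, had -0.40 (adjusted p = 0.0316), a call lost when any single array except control replicate 3 was left out, and its 3 dimmer probe sets had -0.07, -0.07 and -0.09. Nrf1, Tfam and Esrra, the factors that act with Ppargc1a on mitochondria, had 0.09, 0.02 and -0.14 and did not pass. Pdk4, the kinase that spares glucose, had -0.32 (adjusted p = 0.0997), with all resveratrol arrays below all control arrays. Vegfa, named after its values were seen, had -0.39 (adjusted p = 0.0523), and a dimmer probe set of it passed at -0.60 (adjusted p = 0.00384).

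**Figure D4:**
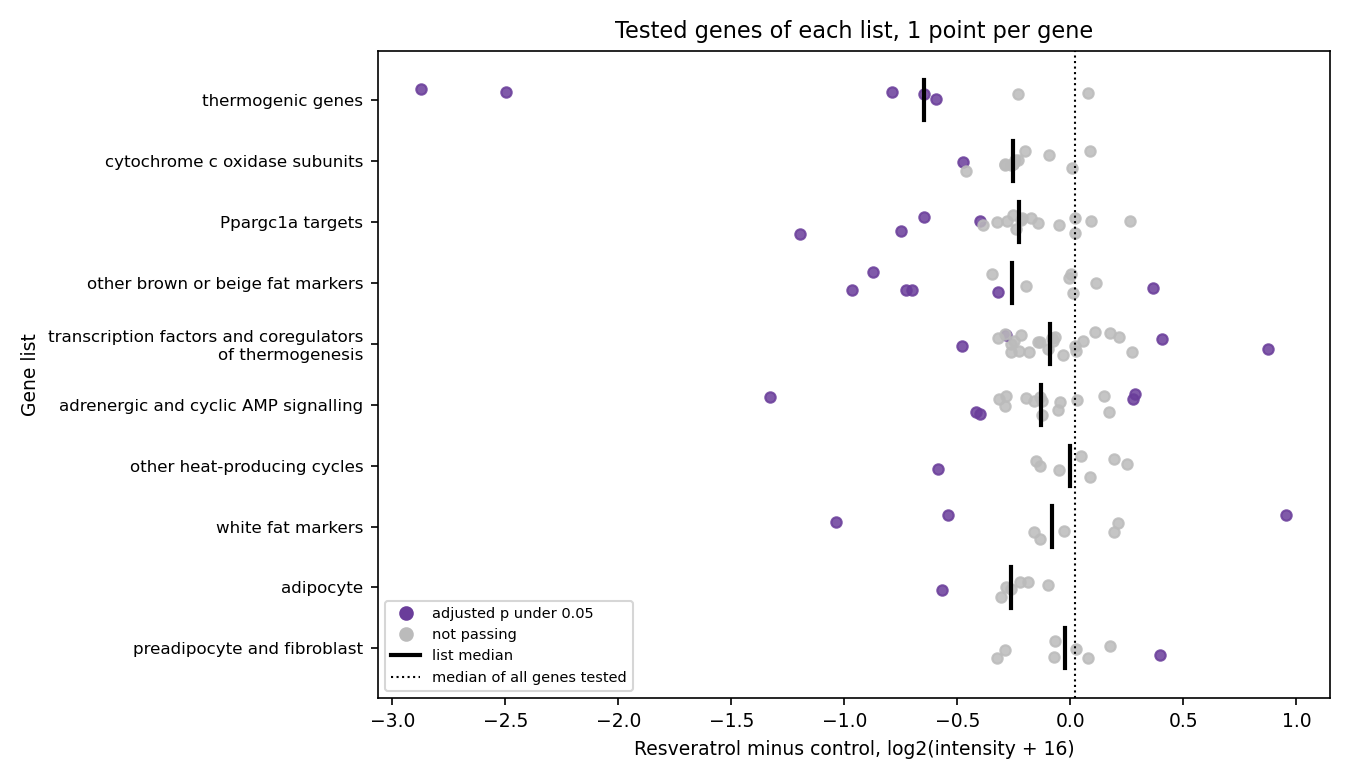
Difference between resveratrol and control on the log2(intensity + 16) scale of every tested gene of 10 gene lists, 1 point per gene at its brightest probe set. Purple points passed at an adjusted p below 0.05, the bar is the list median and the dotted line the median of all genes tested, 0.02. The medians run from -0.65 for the thermogenic genes to -0.00 for other heat-producing cycles.

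Of the transcription factors and coregulators of thermogenesis, 26 were tested, 2 rose, 2 fell and 22 did not pass, at a median of -0.09, where over all genes tested 5.32% were called higher and 5.21% lower. Cebpd, an early factor of fat cell formation, rose from 272 ± 39.8 (SD, n = 3) to 508 ± 10.5, at 0.87 (adjusted p = 0.000398), and Rxra, the partner of the PPARs, rose by 0.41 (adjusted p = 0.00953). A dim second probe set of Cebpd had -0.06 and did not pass. Ebf2, a factor that marks brown fat precursors, fell from 99.3, 97.2 and 93.8 to 64.8, 60.9 and 69.5, at -0.48 (adjusted p = 0.0304), and a second of its 3 probe sets passed at -0.55. Cebpb, which acts with Prdm16 in brown fat, fell by 0.29 (adjusted p = 0.0371). The call of Ebf2 was lost when any single array was left out, and that of Cebpb when any except control replicate 3 was. With the spike classes as a block Ebf2 did not pass either (adjusted p = 0.0572). With the replicate number as a block neither Ebf2 nor Cebpb passed (adjusted p = 0.0582 and 0.0670). Pparg, the nuclear receptor at the head of fat cell formation, had -0.26 (adjusted p = 0.061).

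In the adrenergic and cyclic AMP list, 18 genes were tested, of which 3 fell, 2 rose and 13 did not pass, at a median of -0.13. The shares over all genes tested were 5.21% lower and 5.32% higher. Pde3b, the phosphodiesterase through which insulin lowers cyclic AMP, had 1737, 1885 and 1830 in control and 673, 710 and 760 in treated cells, a log2 difference of -1.33 ± 0.08 (SE) with adjusted p = 3.96e-06. Pnpla2, the triglyceride lipase, had -0.40 (adjusted p = 0.0258) at its brighter probe set and 0.11 at the other. Creb1, the cyclic AMP response factor, named after its value was seen, had -0.42 (adjusted p = 0.0392), a call lost without control replicate 2 or 3 or resveratrol replicate 1 or 2. A dimmer probe set of Creb1 passed at -0.45 (adjusted p = 0.0378), while its other tested probe sets ran from -0.19 to 0.22 and did not pass. Adcy6, an adenylyl cyclase, and Prkar1a, a regulatory subunit of protein kinase A, rose by 0.28 each (adjusted p = 0.0284 and 0.0363). Pde3b kept its call in all 11 other settings. Leaving out any single array lost the call of Prkar1a, any except control replicate 3 that of Adcy6, and control replicate 1 or 2 or resveratrol replicate 2 or 3 that of Pnpla2. With the replicate number as a block, Prkar1a and Adcy6 did not pass either (adjusted p = 0.0672 and 0.0544). In the list of other heat-producing cycles, based on creatine, calcium or carriers, 1 of 8 genes tested fell, Slc25a20 at -0.58 (adjusted p = 0.033). Slc25a20 is the carnitine carrier of fatty acid oxidation and not itself a heat-producing cycle. Its call was lost without control replicate 1 or 2 or resveratrol replicate 1 or 3. With the spike classes as a block it was lost too (adjusted p = 0.0723). A dimmer probe set of Slc25a20 passed at -0.55 (adjusted p = 0.00383). Of relatives of the 10 genes not named above, Cidec, a lipid droplet protein related to Cidea, fell from 4193 ± 464 (SD, n = 3) to 2819 ± 284, at -0.57 (adjusted p = 0.0078), while Cideb had -0.22 and Ucp3 0.16 and did not pass.

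Markers of cell types were read on the same arrays. Their counts stand beside shares over all genes tested of 5.21% called lower and 5.32% called higher. Fat cell markers were bright in both groups, their summed intensity running from 34350 to 50726 in control and from 33373 to 40648 in treated cells. Of 7 tested, 1 fell, Cidec, at a list median of -0.26. Without control replicate 3, 3 fell at a median of -0.42, after quantile normalization 3 fell at -0.17, and with the spike classes as a block 2 fell at -0.17. Fabp4 and Adipoq had -0.22 and -0.31 at their brightest probe sets and did not pass, although 2 dimmer probe sets of Fabp4 passed at -0.67 and -0.51. Among 8 preadipocyte and fibroblast markers, 1 rose, 0 fell and 7 did not pass, at a list median of -0.02. Thy1 rose by 0.40 (adjusted p = 0.0078), and Dlk1 had 0.08. Col3a1, named after its values were seen, had -0.29 and did not pass. A dimmer probe set of Col3a1 passed at -0.58 (adjusted p = 0.00534). Of 12 muscle markers, 9 were near background in both groups, beside 7582 of all 18193 genes, and 0 of 5 tested passed. Their summed intensities ran from 313 to 364 in control and from 314 to 389 in treated cells. Macrophage markers summed to between 281 and 358 in control and between 387 and 439 in treated cells, with 1 of 5 tested higher, Cd14 at 0.47 (adjusted p = 0.0365), a call lost without control replicate 2 or 3 or resveratrol replicate 1 or 2. The part of these markers in the falls of the thermogenic genes was not tested.

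Genes with the most similar profile over the 6 arrays were found for the 5 genes called, by the root mean square distance between log2(intensity + 16) profiles centred on their means. Likeness over 6 arrays in 2 groups is mostly that of the group difference. Nearest to Cox7a1 were Gchfr, Apoc1, Pla2g2e, Ffar4 and Car3, at distances from 0.14 to 0.25. Nearest to Cox8b was Cox7a1 itself, at 0.32, followed by Gchfr, Apoc1, Pla2g2e and Car3. Ppargc1a was nearest to Rras2, Nrbf2, Kif3a, Hk2 and Tiparp, at 0.05 to 0.07. Elovl3 was nearest to Pccb, Bcat2, Acads, Cidec and Psma1, at 0.07 to 0.09, and Kcnk3 to Arih2, Tpcn1, Trib3, Tshr and Kdm4b, at 0.09 to 0.11. Pla2g2e, Ffar4 and Tshr had resveratrol means of 4.87, 10.2 and 30.1, near background, so their distances depend on the offset.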

How the data were processed

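Total RNA of 3 control and 3 resveratrol samples was labelled with biotin, per the labels' protocols. The authors deposited intensities, 1 per probe set and array. The summary software and the genome build are not given in the sources used here. Every array has a mean of 150 once the top and bottom 2% are trimmed, so the deposited intensities were scaled by array. Control replicate 1 is written with more decimals than the others: 0.789% of its values have at most 1 decimal, against 100% elsewhere. Precision is limited by having 3 arrays a group.

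Of 45101 probe sets, 64 controls were left out. Genes were named from the platform annotation, only where a probe set names 1 gene. After ranking by mean log2(intensity + 16), the top 60% (27022) entered limma 3.58.1 (R 4.3.3), using lmFit and a trended eBayes. Tests were 2-sided, p-values were adjusted by Benjamini-Hochberg, and 2209 probe sets passed. The fit was tested on simulated data. Every adjusted p is from limma. The brightest probe set stands for its gene. Background was set by receptor probe sets, since the values carry no detection call. Figures were drawn with matplotlib 3.10.9.

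The genes and gene lists were chosen with earlier results of these data known. Named are all 10 genes, their relatives and fixed partners, up to 4 called genes of each list by smallest p, and the 5 nearest profiles. Further genes are marked as named after their values were seen. Of the genes listed, 15 had no probe set naming them alone and are not analysed here. Alternatives were quantile normalization, other offsets, filters and variance models, array weights, replicate number or spike class as a block, other probe set choices, and leaving out each array. The spike classes were known from an earlier look at these arrays.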

Additional observations from a re-analysis of the deposited data

How the results depend on the processing

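The differences of Cox8b, Cox7a1, Kcnk3 and Ppargc1a stayed negative and called in each of 18 alternatives, except that Cox8b was not tested in 1. With the brightest 40% of probe sets, 3 of the 10 genes were called, because Cox8b and Elovl3 were not tested there, and leaving out single arrays gave 4 to 5. Elovl3 lost its call in 8 alternatives, named above. Ppargc1b and Dio2 passed in none of the 18. The untested Ucp1 and Cidea moved with the offset, from -0.17 to -0.68 and from -0.34 to -1.20 at an offset of 1. Over all probe sets, 2209 were called. With no filter 1396 were called, 861 without an intensity trend, and 1431 without probe sets whose names end in _x_at, _s_at or _a_at. Leaving out 1 array gave 1127 to 1956, fewest without resveratrol replicate 2. There were 1176 without control replicate 2 and 1229 without resveratrol replicate 1. With the replicate number as a block 1894 probe sets and 5 of the 10 genes were called. Deviations of same-numbered arrays correlated with r = -0.06, -0.02 and 0.09, and those of differently numbered arrays with r from -0.08 to 0.09. With 3 arrays a group these values cannot show whether the numbers pair the samples, and the labels do not say. With the replicate number as a block, the list genes Adcy6, Prkar1a, Cebpb and Ebf2 lost their calls (adjusted p = 0.0544, 0.0672, 0.0670 and 0.0582). Without an intensity trend, Cidec, Thy1, Rxra, Slc29a1, Retn, Pnpla2, Idh3a, Cebpb, Prkar1a, Adcy6, Letmd1, Slc25a20, Creb1 and Cd14 lost theirs, at adjusted p from 0.0544 to 0.139. Signal over background limits Cox8b, Elovl3 and all genes near 42.4 or below.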
